A study of Mus musculus with 4 samples.

Results

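Contractile proteins of smooth muscle and myofibroblasts were examined through 10 genes: Acta2, Actg2, Acta1, Tagln, Cnn1, Myl9, Tpm1, Tpm2, Cald1 and Myh11. Every probe set with 1 gene symbol in the platform annotation was taken if that symbol was one of these 10. This gave 23 probe sets of 34945 with 1 symbol, and 10 genes of 18193, and no choice was made on signal. No probe set with several symbols named any of the 10. Of the 10 genes, 5 had 1 probe set and 5 had several. Of the 23 probe sets, 18 were above the floor of 46.5 on all 4 arrays, 4 were at or under it on some arrays and 1 on all. The floor is the 40th percentile of all signals, and lower signals were set to it before ratios were taken. In all, 20 of the 23 had a mean signal at or above 67.95, the median over all probe sets.

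The cells were mouse embryonic fibroblasts, cells grown from embryos, with the labels Wip1+/+ and Wip1-/-. The gene behind them is Ppm1d, whose product is a phosphatase of the damage response. RNA came from unirradiated cells, labelled 0 h, and from cells taken 4 h after 5 Gy of gamma radiation, in each genotype, and was hybridized to 4 Affymetrix Mouse Genome 430 2.0 arrays. There was 1 array per group, so no p-value, SD or error between cultures can be given for any value here. No array held unirradiated cells at 4 h, so radiation and time in culture cannot be told apart. The labels do not give the strain, the number of embryos or the passage of the cells, nor the part of the gene that was deleted. The series was made to examine p53 targets after irradiation, and the contractile genes were measured alongside them.

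Contractile force in these cells comes from actin filaments pulled by myosin. Smooth muscle actins form the filament, tropomyosins lie along it, and calponin, caldesmon and transgelin bind it and restrain or steady it. Myosin heavy and regulatory light chains make the motor. Fibroblasts that switch on these genes are called myofibroblasts, and fibroblasts on stiff culture plastic, embryonic ones included, are known to do so. Many of these genes are driven by serum response factor, Srf, which binds a DNA motif called the CArG box together with myocardin or its relatives Mrtfa and Mrtfb. Transforming growth factor beta is a main inducer.

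RefSeq promoter windows on GRCm38.p6, from 250 bases before to 50 after an annotated start, were found for 7 of the 10 genes, 8 windows in all. Tagln, Actg2 and Myh11 were not matched. A CArG box, meaning CC and GG around 6 bases that are all A or T, was found in the windows of Acta1 and Myl9, so in 2 of the 8, and in 1.63% of all 32851 windows. Allowing up to 1 G or C among the 6 central bases, a looser motif added after the windows were seen that also takes in every exact match, brought in Acta2. It was then found in 3 of 8 windows, and in 9.98% of all windows. These 3 windows are shown because they hold letters that match the motif Srf binds, exactly or loosely. Each is written 5′ to 3′ on the strand of its gene, with the exact and looser CArG matches in capitals.
Acta2, minus strand, chr19:34255324-34255623: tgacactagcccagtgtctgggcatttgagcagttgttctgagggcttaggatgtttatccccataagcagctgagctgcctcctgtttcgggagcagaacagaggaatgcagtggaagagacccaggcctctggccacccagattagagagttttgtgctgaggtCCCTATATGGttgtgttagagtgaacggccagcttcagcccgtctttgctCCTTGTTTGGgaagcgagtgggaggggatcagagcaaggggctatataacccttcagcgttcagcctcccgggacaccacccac
Acta1, minus strand, chr8:123894726-123895025: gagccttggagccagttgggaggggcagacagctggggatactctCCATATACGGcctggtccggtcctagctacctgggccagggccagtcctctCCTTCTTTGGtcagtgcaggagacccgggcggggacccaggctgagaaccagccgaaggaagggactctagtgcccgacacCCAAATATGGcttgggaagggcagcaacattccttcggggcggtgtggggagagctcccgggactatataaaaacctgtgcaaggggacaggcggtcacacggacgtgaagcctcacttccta
Myl9, plus strand, chr2:156775214-156775513: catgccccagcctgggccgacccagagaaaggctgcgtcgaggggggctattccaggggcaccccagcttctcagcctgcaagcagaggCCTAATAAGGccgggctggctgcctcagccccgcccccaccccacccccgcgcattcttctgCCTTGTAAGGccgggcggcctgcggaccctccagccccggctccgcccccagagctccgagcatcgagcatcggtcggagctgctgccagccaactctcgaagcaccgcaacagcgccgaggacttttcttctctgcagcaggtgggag
The looser matches of Acta2 began 84 and 34 bases before the start site. Those of Acta1 began 205, 154 and 73 bases before it, and the last was the exact CArG box. Those of Myl9 began 161 and 99 bases before it, and the first was exact. The M-CAT motif CATTCC, bound by Tead factors, lay in the windows of Acta2, Acta1, Tpm1 and 1 of the pair for Cald1, on one strand or the other, against 14.66% of all windows. The Smad motif CAGAC was found on either strand in 5 of the 8 windows and in 49.59% of all. No match in a window says only that these letters are not there.

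**Figure D1:**
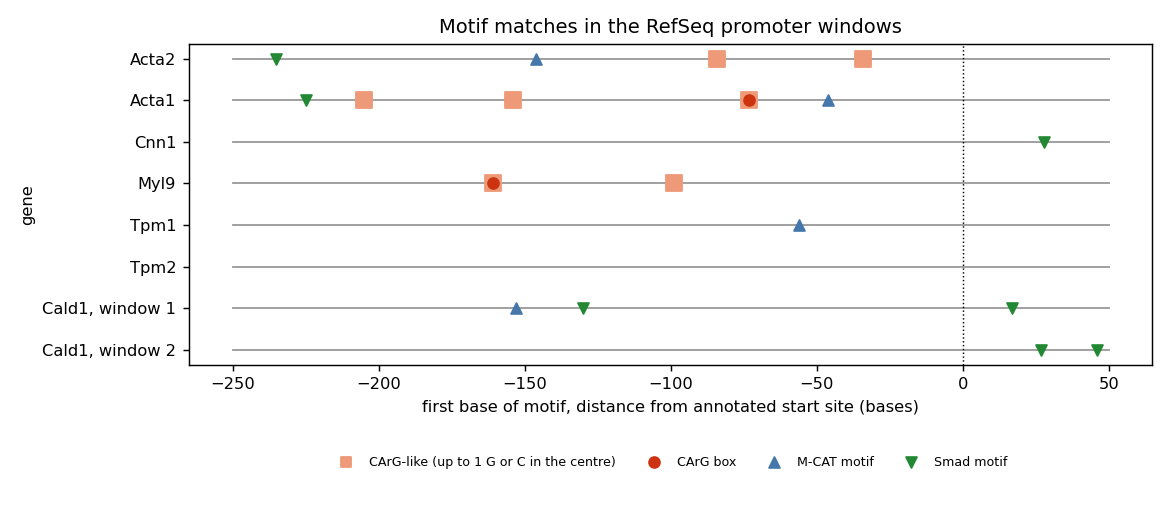
Positions of motif matches in the 8 promoter windows of 7 contractile genes, as the distance in bases of a motif's first base from the annotated start site (dotted line). Exact CArG boxes lie in Acta1 and Myl9, looser matches also in Acta2, and the Tpm2 window holds none of the 4 motifs.

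One array did not behave like its fellows: the unirradiated one labelled Wip1-/-. Each value that rests on it is given beside values that do not. Log2 ratios of 18 spike-in controls, foreign RNAs put into every preparation, had an SD of 0.47 between the unirradiated arrays and 0.10 between the irradiated ones. Its highest signal was 99593, against 59523 to 65196.5 on the other arrays, although all 4 arrays had been scaled to one trimmed mean of 500. Probe sets of Ppm1d read 375 and 317 in unirradiated Wip1+/+ cells, 364 and 463 after irradiation, 504 and 219 on the unirradiated array labelled Wip1-/- and 482 and 561 on the irradiated one. Ppm1d signal therefore did not check the genotype labels, and the place of its probes relative to the deletion is not known here. The cells carried fibroblast transcripts: all 18 fibroblast markers, among them collagens and Vim, were above the floor on all arrays.

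Smooth muscle actin and its partners were strongly present on every array. Acta2, the alpha smooth muscle actin that defines myofibroblasts, read 54984.5 in Wip1+/+ cells before irradiation and 50963 after, and 96701 and 50762 on the arrays labelled Wip1-/- before and after (probe set 1416454_s_at). The unirradiated array labelled Wip1-/- was the high one, and the other 3 lay within 1.08-fold of each other. The highest signals of any probe set on these arrays were 65196.5, 59523, 99593 and 60439, in the same order. Whether signals so near the top of the range still follow the amount of RNA was not tested. Tagln, transgelin, an actin-binding protein, read 35731 and 31812 in Wip1+/+, against 50290 and 33741 with the Wip1-/- label. The unirradiated array with that label was again high and the other 3 lay within 1.12-fold. Cnn1, calponin, read 11798.5 and 10284 in Wip1+/+, against 13147 and 10103 with the Wip1-/- label, and its 3 other arrays were within 1.17-fold.

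Actg2, Acta1 and Myl9 were more alike over the 4 arrays. Actg2, the gamma smooth muscle actin, read 10505 and 10732 in Wip1+/+, against 11560 and 12351 with the Wip1-/- label. Acta1, the skeletal alpha actin, read 9419 and 9642 in Wip1+/+, against 7500 and 8540 with the Wip1-/- label, both lower. The muscle actins are close to identical in their coding parts, and signal shared between their probe sets was not tested. Of the 23 probe sets 8 carry suffixes for probes shared among transcripts or genes. Myl9, the regulatory light chain of smooth muscle myosin, read 29502 and 26790 in Wip1+/+, against 26995 and 28652 with the Wip1-/- label. For Myl9, as for Actg2, the array that stood apart lay within the range of the other 3.

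Myh11, the heavy chain of smooth muscle myosin and a marker of mature smooth muscle, was dim. Its brighter probe set read 503 and 479.5 in Wip1+/+, against 208 and 442 with the Wip1-/- label. The unirradiated array labelled Wip1-/- was the low one, and the other 3 lay within 1.14-fold. Its other probe set, listed under the same sequence record in the platform annotation, was under the floor on all 4 arrays, at 2.5 to 30.7. Which parts of a shared record the probe sets read was not examined, here or for other genes.

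**Figure D2:**
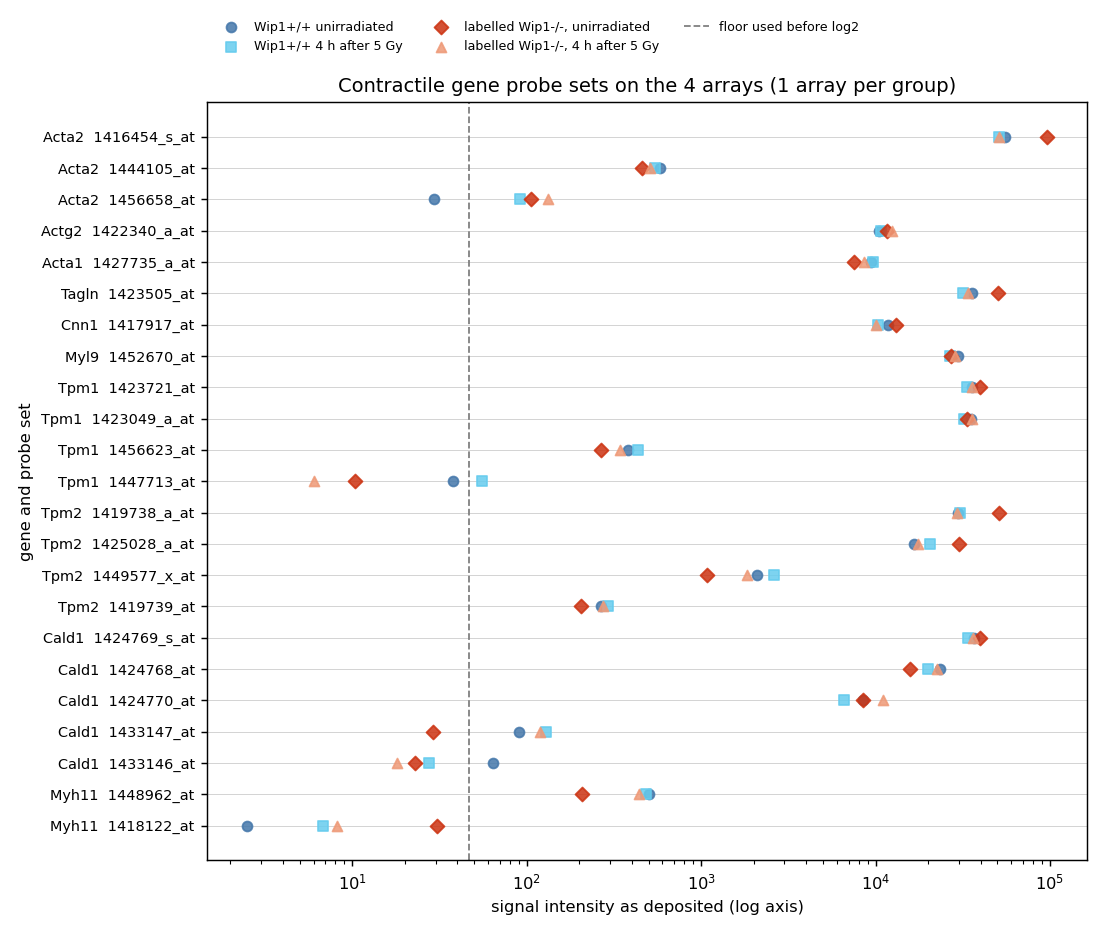
Signal intensity as deposited (log axis) of the 23 contractile gene probe sets, 1 row each, on the 4 arrays, with the floor of 46.5 as a dashed line. The 3 arrays other than the unirradiated one labelled Wip1-/- mostly overlap, while that array lies to the right for the brightest probe sets of Acta2, Tagln and Tpm2 and to the left for the brighter Myh11 probe set.

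Irradiation of Wip1+/+ cells asked whether contractile genes differ 4 h after damage when Wip1 is present. No probe set of the group was at least 2-fold higher or lower: 0 of 23, against 2.94% of all probe sets with 1 symbol. The median log2 ratio was -0.07, and 0.00 over all. Among the 15 with a mean of 500 or more the count was 0 in each of the 4 comparisons, against 0.0919% of all such probe sets here, 5.19% for irradiation of cells labelled Wip1-/-, 6.56% between genotype labels before irradiation and 1.24% after it. Among the 13 probe sets with a mean signal of 5000 or more the log2 ratio lay between -0.36 and 0.30, with 9 below 0. Very bright probe sets of other genes were slightly lower too, with a median of -0.08 in the 152 with means from 20000 to under 40000. Probe sets of one gene differed in this ratio by an SD of 0.18 at means of 500 or more, which covers differences between probes but not between cultures. Acta2, Tagln, Cnn1 and Myl9 had log2 ratios of -0.11, -0.17, -0.20 and -0.14, within that SD or close to it. At means of 20000 or more, where Acta2, Tagln and Myl9 lie, that SD was 0.065, and the ratios of these 3 were larger than it. Of the 38 probe sets of other genes with means of 40000 or more, where Acta2 lies, 0 had a ratio above 1. Their median log2 ratio was -0.10, and 15 had a lower ratio than Acta2. For Myl9, 29 of 152 others in its signal range were lower. A dim Acta2 probe set, 1456658_at, came nearest to 2-fold, at least 1.98-fold higher from a signal under the floor, with 92.0 after irradiation. Tagln lay in the lower part of its signal range, with 12 of 152 other probe sets lower, and Cnn1 likewise, with 23 of 368 lower.

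Tpm2, beta-tropomyosin, was higher in irradiated Wip1+/+ cells by each of its 4 probe sets, with log2 ratios of 0.30, 0.04, 0.34 and 0.13. Probe set 1425028_a_at read 16652 before and 20447 after irradiation, 1.23-fold higher, and none of the 152 others in its signal range had a higher ratio. Probe set 1419738_a_at read 29598 and 30480, and 6 of the 152 were higher. Probe set 1449577_x_at read 2077 and 2626, and 477 of 6354 others were higher. Probe set 1419739_at read 266 and 291, and 3029 of 8235 others were higher. On the irradiated array labelled Wip1-/- the 4 read 17485, 29290, 1831 and 272.5, in the order in which they are named here. On the unirradiated array with that label they read 30110, 51309, 1077 and 204, the first pair highest and the last pair lowest of the 4 arrays. Of the 3 arrays that did not stand apart, irradiated Wip1+/+ thus read highest in all 4 probe sets. All but 1425028_a_at are listed under one sequence record. How often probe sets of other genes read highest there was not counted. In Tpm1, alpha-tropomyosin, by contrast, the bright probe sets read 35569 and 33232, and 35373 and 32285, before and after irradiation of Wip1+/+ cells. Their log2 ratios were -0.10 and -0.13. With the Wip1-/- label they read 39469 and 35689, and 33543 and 35777, before and after irradiation. A dim Tpm1 probe set, 1456623_at, read 382 and 433.5 in Wip1+/+, and 267 and 341 with the Wip1-/- label, and the other, 1447713_at, was above the floor on 1 array only, at 55.6.

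Cald1, caldesmon, which inhibits the actomyosin motor, was measured by 5 probe sets that did not read alike. Probe set 1424769_s_at read 36427 and 33992 in Wip1+/+, against 39621 and 36387 with the Wip1-/- label. Probe set 1424768_at read 23399 and 20055 in Wip1+/+, against 15674 and 22620 with the Wip1-/- label. Probe set 1424770_at read 8429 and 6581 in Wip1+/+, against 8488 and 11043 with the Wip1-/- label. All 3 are listed under one sequence record and all were lower in irradiated Wip1+/+ cells, with log2 ratios of -0.10, -0.22 and -0.36. In the last case 6 of 792 other probe sets in the same signal range were lower. The remaining 2, listed under another sequence record, were near the floor and read 18.1 to 129.

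**Figure D3:**
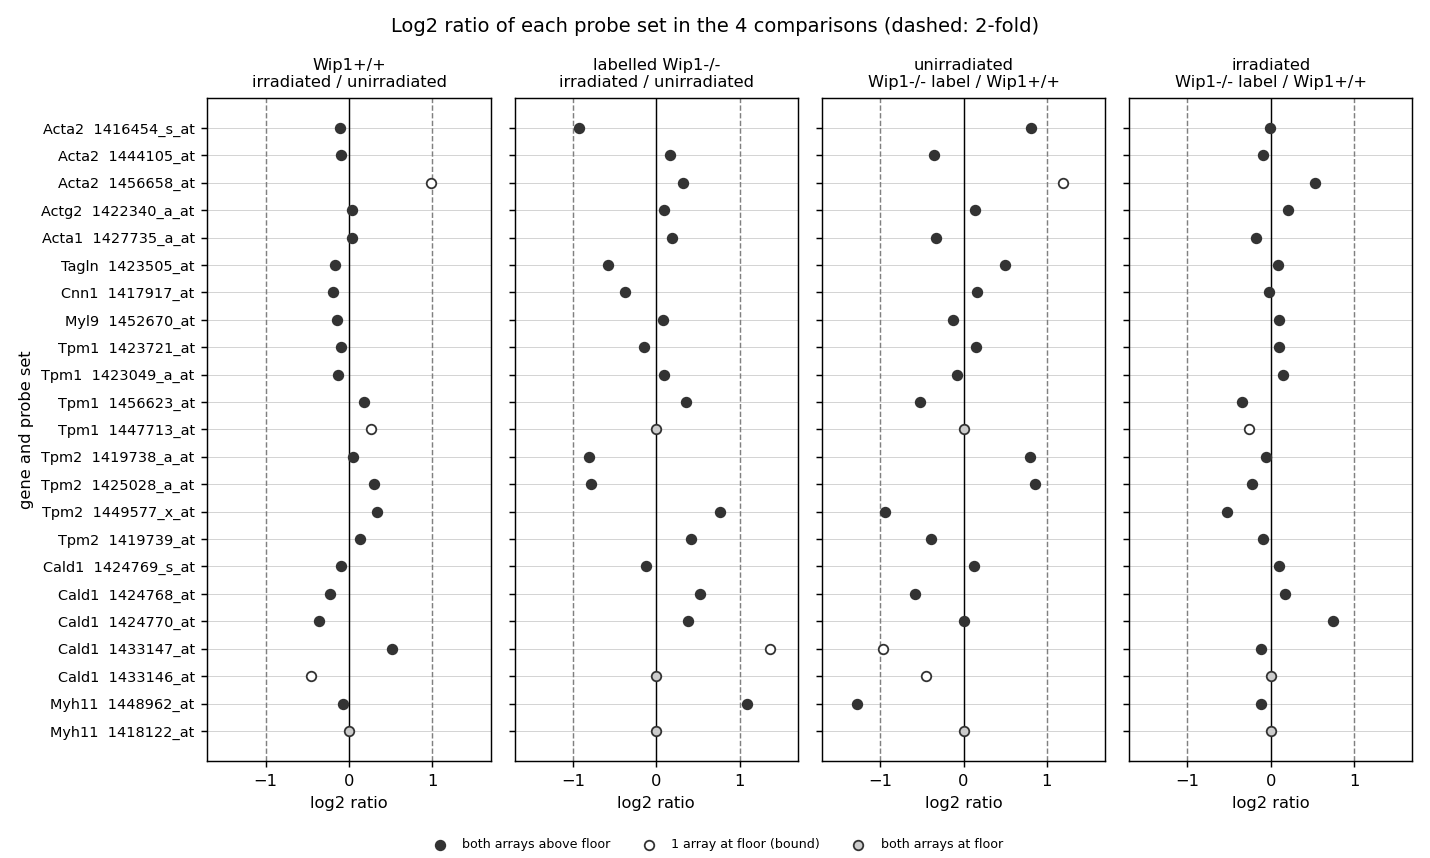
Log2 ratio of each of the 23 contractile gene probe sets in the 4 comparisons, with open circles where 1 array was at the floor and grey ones where both were. No point passes the dashed 2-fold lines in the left and right panels, and 2 pass them in each of the panels that use the unirradiated array labelled Wip1-/-.

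After irradiation, cells labelled Wip1-/- and Wip1+/+ cells were compared without the array that stood apart. Again 0 of the 23 probe sets were at least 2-fold apart, against 4.01% of all, and the median log2 ratio was -0.01. Over the 9 probe sets with a mean of 20000 or more it was 0.10, with a range from -0.23 to 0.17. Over all 199 probe sets with such a mean the median was 0.07. Of the 152 of other genes with means from 20000 to under 40000, 114 had a ratio above 1. Of the 38 with means of 40000 or more, 33 did. Acta2 had a log2 ratio of -0.01, Tagln 0.08, Cnn1 -0.03, Myl9 0.10, and the bright probe sets of Tpm1 0.10 and 0.15. The SD between probe sets of one gene was 0.23 at means of 500 or more and 0.07 at means of 20000 or more. The widest of the 23 was Cald1 by probe set 1424770_at, 1.68-fold higher with the Wip1-/- label, and 6 of 792 others in its signal range were higher. The brighter Cald1 probe sets listed under the same sequence record had log2 ratios of 0.10 and 0.17. The 4 Tpm2 probe sets were all lower with the Wip1-/- label, with log2 ratios of -0.23, -0.06, -0.52 and -0.10. This comparison and the irradiation of Wip1+/+ cells share the irradiated Wip1+/+ array.

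Before irradiation, the same comparison gave wider and more divided ratios, and it rests on the array that stood apart. Of the 23 probe sets 1 passed 2-fold upward and 1 downward, against 10.7% of all probe sets in either direction, 5.55% higher and 5.18% lower. Myh11 was 2.42-fold lower with the Wip1-/- label, and in irradiated cells it had a log2 ratio of -0.12. Another, dim probe set of Acta2, 1456658_at, was at least 2.29-fold higher, against a signal of 29.4 in unirradiated Wip1+/+, which is under the floor. It read 106 and 132 with the Wip1-/- label. The median log2 ratio was 0.00 in the group and 0.00 over all. The SD between probe sets of one gene was 0.55 at means of 500 or more.

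Probe sets of one gene could go opposite ways on that array. Acta2 had a log2 ratio of 0.81 by its bright probe set and -0.36 by 1444105_at, which read 584 and 545 in Wip1+/+, against 455 and 510.3 with the Wip1-/- label. Tpm2 had 0.79 and 0.85 by its bright probe sets and -0.95 and -0.39 by its dimmer ones. Of these 4, 3 are listed under one sequence record, and which parts of it they read was not examined. Tagln had 0.49. All 5 probe sets of the group with means from 100 to under 5000 read lowest on this array, while 6 of the 9 with means of 20000 or more read highest there. The 3 very bright ones that did not were Myl9, Tpm1 by 1423049_a_at and Cald1 by 1424768_at. Of the 4 with means from 5000 to under 20000, 1 read highest there, 1 lowest and 2 between. The 5 that read lowest include both dimmer Tpm2 probe sets, which are listed under one sequence record. How often probe sets of other genes read highest or lowest there was not counted. With means from 100 to under 500, 4179 of 8235 of those had a ratio above 1 between genotype labels before irradiation. From 500 to under 2000 it was 3214 of 6354.

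Many other very bright probe sets were also higher on that array. Among the 38 probe sets of other genes with a mean of 40000 or more, 33 had a ratio above 1 in unirradiated cells and the median log2 ratio was 0.52, against 0.055 in irradiated cells. Of those 38, 5 had a higher ratio than Acta2. Among the 152 with means from 20000 to under 40000, where 8 of the 9 brightest contractile probe sets lay, 96 had a ratio above 1 and the median was 0.13. Bright control probe sets differed among themselves. Those for Actb, cytoplasmic beta-actin, had 0.65 to 0.72, and those for Gapdh, a glycolytic enzyme, 0.13 to 0.61. Those for the phage transcript cre, which is added from outside the cells, had 0.93, 0.60, 0.22 and 0.10. Under quantile normalization, which gives the arrays one distribution of signals, Acta2 had 0.07, Tagln 0.19 and the bright Tpm2 probe sets 0.50 and 0.75. Under cyclic loess Acta2 had 0.71 and Tagln 0.41, and under scaling to the median of brighter probe sets 0.88 and 0.56. How much of the Acta2 signal on this array reflects the cells was not tested.

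**Figure D4:**
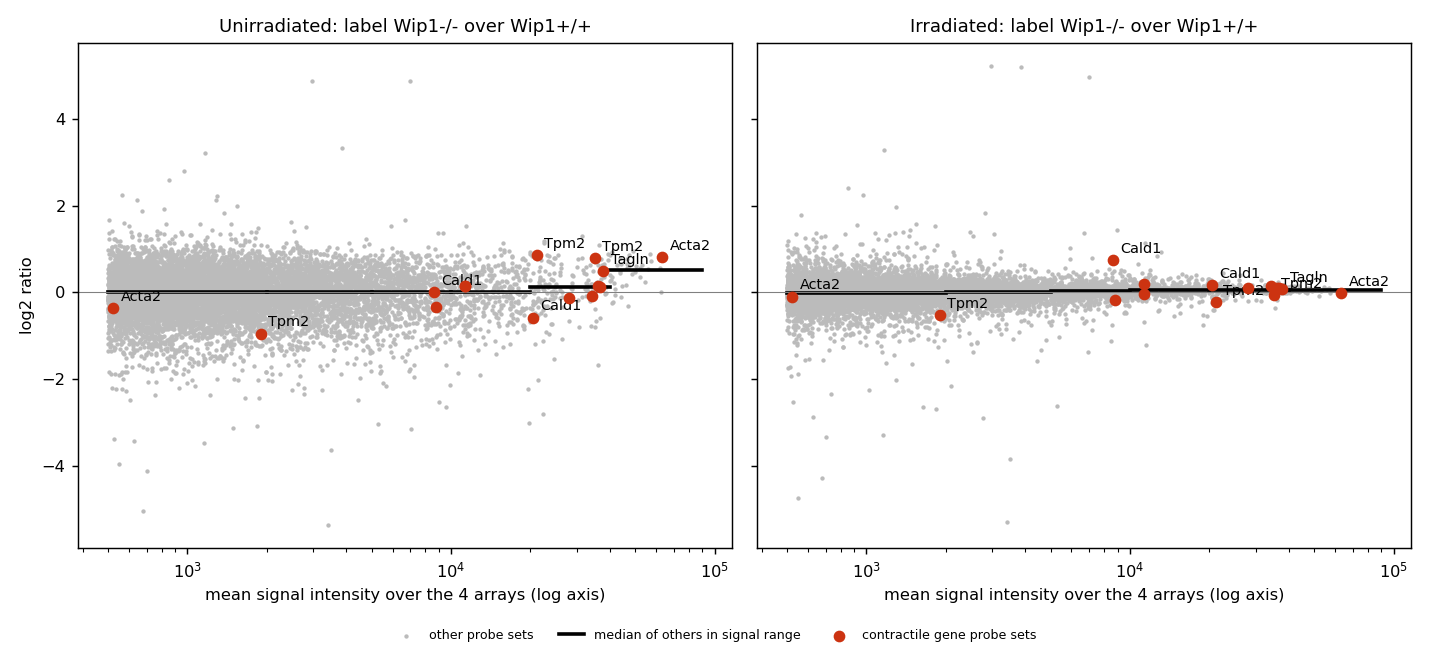
Log2 ratio of the array labelled Wip1-/- over the Wip1+/+ array against mean signal (log axis), unirradiated on the left and irradiated on the right, for probe sets with a mean of 500 or more. Red points are the contractile genes and black bars the median of other probe sets in each signal range, which reaches 0.52 above a mean of 40000 on the left and 0.055 on the right.

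Irradiation of the cells labelled Wip1-/- asked whether the response differs without Wip1, and also rests on that array. Of the 23 probe sets 2 passed 2-fold upward and 0 downward, against 9.51% of all in either direction, 4.36% higher and 5.15% lower. Myh11 was 2.13-fold higher, from 208 to 442, and a dim Cald1 probe set, 1433147_at, at least 2.57-fold higher, from 28.8 to 119. Acta2 had a log2 ratio of -0.93, the bright Tpm2 probe sets -0.81 and -0.78, Tagln -0.58 and Cnn1 -0.38. Actg2, Acta1 and Myl9 had 0.10, 0.19 and 0.09. The SD between probe sets of one gene was 0.54, and the 38 probe sets of other genes above a mean of 40000 had a median of -0.54. Over all 23 probe sets the median was 0.09. With each gene given by its brightest probe set alone it was -0.13, so the sign of the group turned on which probe sets were taken. Of the 18 probe sets above the floor on all arrays, 2, of Myh11 and Tpm2, had irradiation ratios that pointed opposite ways in the genotypes and lay at least 2-fold apart, as did 9.39% of all such probe sets.

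The genes whose pattern over the 4 arrays was nearest to that of Acta2 were not contractile genes. Nearness was the root mean square distance between log2 signals centred on each gene's mean, over 6387 other genes with a mean of 500 or more and a signal above the floor on all arrays. The nearest were Eif2s2, a subunit of a translation initiation factor, at 0.02, Rps26, a ribosomal protein, at 0.02, Setd3, a methyltransferase that acts on actin, at 0.02, Kmt5b, a histone methyltransferase, at 0.03, and Stub1, a ubiquitin ligase, at 0.03. Each was high on the unirradiated array labelled Wip1-/-, as Eif2s2, which read 21732 and 20352 in Wip1+/+, against 39310 and 20884 with the Wip1-/- label. Of the 6387 genes 160 lay within 0.1 of Acta2. Among the contractile genes Tpm2, at 0.07, and Tagln, at 0.14, were nearest, with ranks of 75 and 381 among all genes compared. Of the contractile genes compared, Acta1, at 0.52, was farthest, beyond the median of 0.39 over all genes. Myh11, with a mean of 408 by its brighter probe set, was under the limit of 500 and was not compared. These distances rest on 4 arrays and on the one that stood apart.

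Genes around the contractile group were read by the brightest probe set of each, in lists of related genes. Over all 18193 genes read so, 241 were at least 2-fold higher and 281 lower in irradiated Wip1+/+ cells, and 734 and 953 in irradiated cells labelled Wip1-/-. Between genotype labels the counts were 1016 and 922 before irradiation and 340 and 421 after it, and the median log2 ratio was 0.00 in all 4 comparisons. Before irradiation, the list medians between genotype labels were 0.28 for non-muscle contractile genes, 0.01 for other smooth muscle genes and -0.09 for adhesion. They were 0.16 for Srf with its partners and early targets, -0.07 for contraction control and 0.07 for the transforming growth factor beta pathway. After irradiation they lay between -0.01 and 0.08.

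Among 13 non-muscle contractile genes, which move all cells, 1 was at least 2-fold apart between genotype labels before irradiation and 0 after it. Myl12b, a regulatory light chain of non-muscle myosin, read 4541 and 4836 in Wip1+/+, against 9258 and 5205 with the Wip1-/- label, high on the array that stood apart. Actb read 46970 and 43222 in Wip1+/+, against 64951 and 45096 with the Wip1-/- label, and Actg1, gamma-actin, 50621 and 48220.5, then 74100.5 and 50813. Myh9, a non-muscle myosin heavy chain, read 18178 and 19580, then 11924 and 21503. After irradiation of Wip1+/+ cells Myh14 alone passed 2-fold, at least 2.06-fold higher from a signal under the floor.

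Other smooth muscle genes, 20 in all, held 2 that passed 2-fold upward and 2 downward with the Wip1-/- label before irradiation, and 1 upward after it. Myocd, the cofactor of Srf that drives smooth muscle genes, read 78.9 and 37.9 in Wip1+/+, against 244 and 259 with the Wip1-/- label, higher on both. In irradiated cells it was at least 5.57-fold higher. This rests on 1 of its 2 probe sets, since the other was under the floor on all arrays. Itga8, an integrin of smooth muscle and myofibroblasts, read 1569 and 1714 in Wip1+/+, against 550 and 1021 with the Wip1-/- label. Its other probe set read 544 and 616, then 201.5 and 342, so both were lower on both arrays with that label, with log2 ratios of -0.75 and -0.85 after irradiation. Des, the muscle intermediate filament, read 462 and 501, then 1138 and 695. Synpo2, an actin-binding protein, read 282 and 246, then 72.3 and 273, and Fhl1, a muscle LIM protein, 20196 and 18678, then 36550 and 17165. For Synpo2 and Fhl1 the unirradiated array labelled Wip1-/- lay apart and the other 3 lay close together. The other probe set of Des had a log2 ratio of 0.04 before irradiation, and the 4 of Synpo2 differed in sign.

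Regulators of these genes and early targets of such regulators were measured in a list of 16. Srf read 970 and 1018 in Wip1+/+, against 1698 and 948 with the Wip1-/- label. Mrtfa read 1303 and 1330, then 1881 and 1374, and Mrtfb 1532 and 1881, then 1620 and 1586. In irradiated Wip1+/+ cells 2 of the 16 passed 2-fold upward and 1 downward. Egr1 and Fos, early response targets of Srf with its other cofactors, were 2.29- and 2.00-fold higher, and Tead4, which binds the M-CAT motif, was 2.44-fold lower, from 167 to 68.4. The arrays with the Wip1-/- label read 162.5 and 174 for Tead4, so irradiated Wip1+/+ was its low array, and its other probe set was under the floor on all 4. Fos read 25.6, under the floor, on the unirradiated array labelled Wip1-/- and 291 on the irradiated one. Ccn2, connective tissue growth factor, read 42437 and 39430.5 in Wip1+/+, against 63045 and 40711 with the Wip1-/- label. Its high array was again the unirradiated one with that label.

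The remaining lists stayed mostly under 2-fold. Of 19 measured adhesion and stress fibre genes 0 passed 2-fold in any of the 4 comparisons. The widest ratios were those of Fermt2, kindlin-2, 1.97-fold lower with the Wip1-/- label before irradiation, and Cdh11, a fibroblast cadherin, 1.96-fold higher after irradiation of cells with that label, both on the array that stood apart, and other probe sets of each went the other way. Of 16 genes of contraction control, 1 was lower before irradiation with the Wip1-/- label: Ppp1cb, the catalytic subunit of myosin phosphatase, by 2.21-fold, while 2 of its 3 other probe sets were higher. Arhgef12, which activates RhoA, was 2.07-fold lower in irradiated cells labelled Wip1-/- by 1 probe set and higher by its 3 others. Of 20 measured genes of the transforming growth factor beta pathway, 1 was at least 2-fold higher and 1 lower with the Wip1-/- label before irradiation, and 0 after it. Nox4, an oxidase linked to myofibroblasts, read 614.5 and 683 in Wip1+/+, against 1511 and 779 with the Wip1-/- label, and Smad6, an inhibitor of the pathway, 1314 and 1193, then 552 and 929. The other Nox4 probe set had a log2 ratio of -0.06 before irradiation. Tgfb1 read 1389 and 1353, then 1150 and 1814.

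Markers of other cell types were read beside the contractile genes. Of 12 skeletal muscle markers 4 were under the floor on all arrays, among them Myog and Pax7, and 4 were above it on all. Des, also a smooth muscle gene, was one of those above it, at 462 to 1138. The 12 markers summed to 829 to 1750. Myod1, of the same list, was above the floor on 3 arrays, at up to 94.2. Of 6 cardiac markers 3 were above the floor on all arrays, with sums of 524 to 631. Single cardiac markers were less even than these sums. With the Wip1-/- label 2 of the 6 were at least 2-fold higher before irradiation, and 0 after it. After irradiation of cells with that label 2 were higher and 1 lower. Of 7 endothelial markers 3 were under the floor on all arrays, Pecam1, Vwf and Tie1, and the 7 summed to 325 to 536. Above it on all arrays were 2, Kdr at 130 to 264 and Cldn5 at 62.6 to 140. Kdr was 2.04-fold higher with the Wip1-/- label before irradiation. Cldn5 was 2.24-fold lower after irradiation of cells with that label. Both ratios rest on the array that stood apart. Vascular mural markers, 6 in all, summed to 3245 and 3806 in Wip1+/+, against 2286 and 2947 with the Wip1-/- label. Their median log2 ratio was -0.30 before irradiation, with 1 above 0 and 4 below, and 0.03 after it, with 3 above and 2 below. Mcam, a mural adhesion molecule, had -1.10 and -0.96, Rgs5, a pericyte marker, -0.42 and -1.17, and Notch3, a receptor of mural cells, 0.25 and 0.28. Of the other Rgs5 probe sets, 1 of 3 was above 0 before irradiation. Macrophage markers were lower on both arrays with that label, 6 of 8 by at least 2-fold before irradiation and 8 of 8 after. Their sums were 8152 and 8303 in Wip1+/+, against 1839 and 1657 with the Wip1-/- label. Epithelial markers, 4 in all, summed to 717 to 783 in Wip1+/+ and 1095 to 1167 in cells labelled Wip1-/-. The part of these other cell types in the contractile signals was not tested. In RNA from whole cultures, fewer cells of a type and less RNA per cell cannot be told apart.

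**Figure D5:**
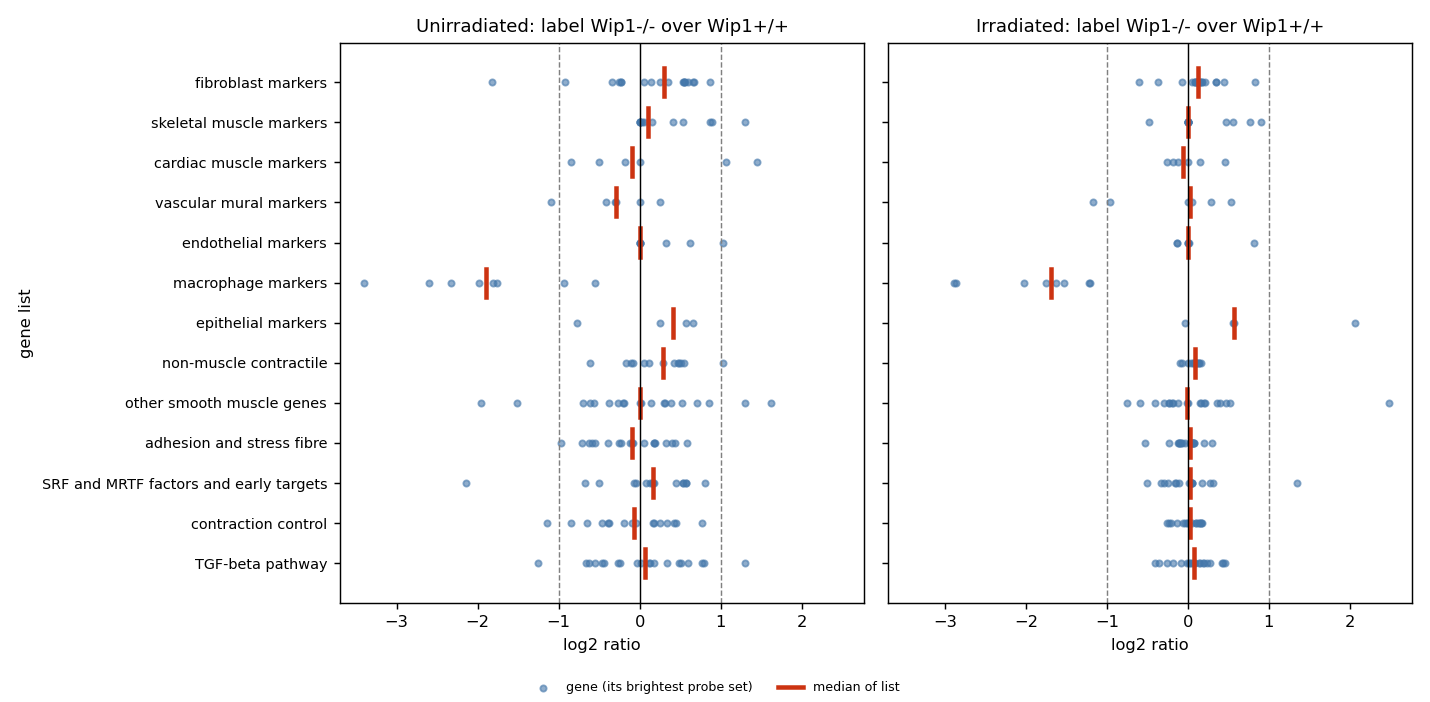
Log2 ratio of the array labelled Wip1-/- over the Wip1+/+ array for each gene of 13 lists, by its brightest probe set, with the list's median in red and 2-fold as dashed lines. Most contractile, adhesion and signalling genes draw together around 0 in irradiated cells on the right, where the 8 macrophage markers lie below -1, as 6 of those 8 do on the left.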

How the data were processed

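The deposited values were signal intensity on a linear scale, 1 per probe set and array, which the authors summarised with GCOS, the Affymetrix software, per the submitters' processing notes. Its version, background step and detection calls were not given in the sources used here. Each deposited column had a mean of 500 after trimming 2% at each end. The values were used as deposited. Of 45101 probe sets, 64 were controls, 932 had several symbols, 9160 were not listed and 34945 entered, with no filter on signal so that each probe set of the 10 genes is accounted for. Symbols came from the platform annotation, and the 10 gene identifiers matched GRCm38.p6 RefSeq with 0 changed. Signals under 46.5 were set to 46.5 before log2. A ratio against that floor is a bound, written as at least that many fold.

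With 1 array per group no test was made: a probe set was counted if it differed by at least 2-fold, and the same count over all probe sets stands beside it. The SD between probe sets of one gene covers probes only. The number of arrays limits the precision. Lists of 6 kinds of related genes and 7 of cell type markers came from textbook knowledge and used each gene's brightest probe set. In the 6 lists of related genes, genes were named if at least 2-fold apart with both arrays above the floor, or else the 2 widest. Cell type markers were not all named by this rule. Markers left unnamed could also be at least 2-fold apart, as Lum was, 3.53-fold lower with the Wip1-/- label before irradiation. Further list genes and single probe sets were named after their values were seen. The 10 genes, the lists and the rules were chosen with earlier results of these data known. The counting was checked on simulated data. Alternatives were quantile normalization and cyclic loess (limma 3.58.1, R 4.3.3), brighter-median scaling, other floors and filters, and other choices of probe sets. Python 3.11.15 with numpy 2.4.6 and pandas 2.3.3 was used.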

Additional observations from a re-analysis of the deposited data

Results flagged for a closer look

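Of the 18 contractile gene probe sets above the floor on all arrays, 2 had irradiation ratios that pointed in opposite directions in the 2 genotypes and lay at least 2-fold apart. This difference was not tested, since each group held 1 array. Of all probe sets with 1 symbol above the floor on all arrays, 9.39% did the same. Myh11 by 1448962_at had a log2 ratio of -0.07 in Wip1+/+ cells and 1.09 in cells labelled Wip1-/-, a difference of 1.16. Tpm2 by 1425028_a_at had 0.30 and -0.78, a difference of -1.08. The brightest Tpm2 probe set, 1419738_a_at, had 0.04 and -0.81, also opposite ways, with a difference of -0.85. The dimmer Tpm2 probe sets had 0.34 and 0.77, and 0.13 and 0.42, so they went the same way in both. The flagged differences of Myh11 and Tpm2 rest on the unirradiated array labelled Wip1-/-. It was the low array for Myh11 by 1448962_at and the high one for Tpm2 by 1425028_a_at.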

How the results depend on the processing

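Each group held 1 array, so no array could be left out and an unusual array cannot be told from a difference between cells. No paired analysis was possible because each group had 1 array. Probe sets near the floor have only bounds. Of the values under alternatives, 115 stayed within the spread or 1.5 times the count and 31 moved; the causes were not tested. In irradiated Wip1+/+ cells, the count at least 2-fold higher went from 0 to 1 under quantile normalization and with the floor at the 25th percentile, and to 2 with no floor. The count lower went to 1 under each of these floor settings. The median went from -0.07 to 0.004 under quantile normalization and -0.027 under cyclic loess. In irradiated cells labelled Wip1-/-, the count higher went from 2 to 1 with a filter at the 67th percentile or the brightest probe set per gene, and to 0 with a mean of 500 or the median per gene. The count lower went from 0 to 1 under brighter-median scaling and with no floor. The median went from 0.09 to -0.13 with the brightest probe set. Between genotype labels before irradiation, the count higher went from 1 to 2 with no floor, and to 0 with a filter at the 67th percentile or a mean of 500, the brightest probe set or the median per gene. The count lower went from 1 to 4 with the floor at the 25th percentile or no floor, and to 0 with a mean of 500 or the median per gene. The median went from 0.00 to 0.12 with a mean of 500, 0.14 with the brightest probe set and -0.13 without suffixed probe sets. After irradiation, the count higher went from 0 to 1 against the mean of both Wip1+/+ arrays, the count lower from 0 to 1 with the floor at the 25th percentile or no floor, and the median from -0.01 to 0.085 with a mean of 500. The median difference between irradiation ratios went from 0.15 to -0.035 with the brightest probe set.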
